A study of Homo sapiens with 20 samples.

Results

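Regions of N6-methyladenosine (m6A) enrichment that lay in the coding sequence (CDS) of long internal exons were examined in a cisplatin-sensitive and a cisplatin-resistant bladder cancer line. The position of a merged region was the median summit of all peaks in it. A region was kept when that position lay in CDS of a protein-coding canonical transcript, in an exon of at least 400 bases that was neither first nor last, and more than 200 bases from the stop codon. Of 43676 merged regions, 3347 (7.66%) met these rules, and they came from 2725 exons of 2169 genes. They made up 29.4% of the 11367 regions in CDS beyond 200 bases from a stop codon. For 42 of them the position lay in exons of more than 1 gene, and the lists carry no strand, so either gene could be the source.

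T24 is a human bladder cancer line sensitive to cisplatin. Serial exposure of T24 to the drug gave the resistant line T24R2, which was kept in medium that contained it. Both lines carried the genotype label WT and were collected at day 3. Fragments of total RNA were captured with an anti-m6A antibody (NEB E1610), and each pull-down (IP) library was called against an input library made without antibody, with 5 IP and 5 input libraries per line. Each condition was thus 1 line, and T24R2 shares its origin with T24. The labels do not state that replicates were separate cultures, so p-values measure the spread between these libraries, which may be technical.

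A methyltransferase built around METTL3 adds m6A to new RNA, mostly at DRACH motifs (H stands for A, C or T, R for a purine, and D for any base but C). Exon junction complexes, which sit just upstream of spliced junctions, keep this enzyme from nearby RNA. Methylation therefore gathers in sequence far from junctions, that is in last exons and in internal exons of unusual length. Such exons are a feature of genes for large scaffold, chromatin, repair and cadherin proteins, in which 1 exon can hold much of the coding sequence.

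The number of peaks ran from 17203 to 33120 per library, the highest being T24R2 replicate 5, and the depth of the libraries is unknown from these lists. Among 20 urothelial and epithelial marker genes, 7 had an exonic region, and GATA3 and ELF3 each had one called in all 5 T24 libraries and in 0 of 5 T24R2 libraries. KRT7 and KRT18 each had one in at most 2 of 5 T24R2 libraries and in 0 of 5 T24 libraries. PPARG had one in at most 1 library of each line, and FOXA1 had one in all 10 libraries. The uroplakin gene UPK1A had one in at most 2 libraries of a line, and KRT5, KRT20, TP63, CDH1 and EPCAM had none. Of 10 mesenchymal genes, 7 had an exonic region. These calls need both RNA and m6A, so a missing call does not show that a marker was not expressed.

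The sequences below show 50 bases on each side of the position for the regions on which the results turn, on the transcript strand in hg38, with DRACH matches in capitals. The first 3 were the shared regions whose lowest enrichment percentile over the 10 libraries was highest. They hold 2, 1 and 4 DRACH matches.
BCL2, chr18:63318611-63318711, minus strand: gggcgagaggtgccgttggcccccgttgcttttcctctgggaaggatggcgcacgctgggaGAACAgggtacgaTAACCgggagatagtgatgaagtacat
AHDC1, chr1:27549905-27550005, minus strand: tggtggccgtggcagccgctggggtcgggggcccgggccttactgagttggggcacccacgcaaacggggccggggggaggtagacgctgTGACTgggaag
ZNRF3, chr22:29049360-29049460, plus strand: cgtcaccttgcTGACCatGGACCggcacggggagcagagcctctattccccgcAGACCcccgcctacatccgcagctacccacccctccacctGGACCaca

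The next 4 were called in every library of 1 line and in no library of the other. ARHGAP25 and HECW1 were found in T24R2 alone, THEMIS2 and IGSF10 in T24 alone.
ARHGAP25, chr2:68822719-68822819, plus strand: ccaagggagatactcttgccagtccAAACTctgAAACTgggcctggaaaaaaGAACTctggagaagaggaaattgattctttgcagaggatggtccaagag
HECW1, chr7:43444916-43445016, plus strand: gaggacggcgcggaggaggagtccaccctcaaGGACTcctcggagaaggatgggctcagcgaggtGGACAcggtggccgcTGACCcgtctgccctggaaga
THEMIS2, chr1:27882790-27882890, plus strand: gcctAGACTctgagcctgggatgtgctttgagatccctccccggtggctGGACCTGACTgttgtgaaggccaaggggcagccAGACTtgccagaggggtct
IGSF10, chr3:151443119-151443219, minus strand: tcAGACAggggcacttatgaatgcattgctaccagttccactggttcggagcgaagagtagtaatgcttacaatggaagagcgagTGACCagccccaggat

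The last 4 were called in all 10 libraries and were those with the largest rank differences past the test in each direction. ALPK3 and TMCO3 led the 10 ranked higher in T24R2, and TRAF3IP1 and KIAA1958 were the only 2 ranked higher in T24. The window of TMCO3 holds 1 DRACH match and that of KIAA1958 holds 8.
ALPK3, chr15:84856638-84856738, plus strand: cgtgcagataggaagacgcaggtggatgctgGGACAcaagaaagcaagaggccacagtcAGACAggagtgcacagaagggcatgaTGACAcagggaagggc
TMCO3, chr13:113495853-113495953, plus strand: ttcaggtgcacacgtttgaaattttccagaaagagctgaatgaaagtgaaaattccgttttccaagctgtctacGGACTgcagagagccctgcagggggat
TRAF3IP1, chr2:238329112-238329212, plus strand: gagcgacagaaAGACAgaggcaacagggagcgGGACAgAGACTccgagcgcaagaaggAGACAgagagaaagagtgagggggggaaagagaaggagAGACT
KIAA1958, chr9:112574419-112574519, plus strand: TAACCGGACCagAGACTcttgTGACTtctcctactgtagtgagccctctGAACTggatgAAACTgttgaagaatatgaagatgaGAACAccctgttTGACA

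Exon length and the presence of a region were first compared over annotated exons, with genes limited to those whose transcript had a region at the stop codon or in the 3′UTR called in all 10 libraries. These 3019 genes had 24340 internal coding exons, of which 652 (2.68%) had 400 bases or more and held 17.4% of the exonic bases. A region lay in 589 of the 652 long exons (90.3%) and in 2007 of the 23688 shorter ones (8.47%). A region called in all 10 libraries lay in 423 long exons (64.9%) and in 198 shorter ones (0.836%).

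The share rose at each step of length. It was 3.35% of exons under 100 bases, 7.21% from 100 to under 150 bases, 19.4% from 200 to under 300 bases and 49.1% from 300 to under 400 bases. From 400 to under 600 bases it was 84.1%, and at 2000 bases or more it was 98.4%, or 60 of 61 exons. A longer exon offers more sequence in which a region can fall. Per kilobase of exon the number of regions was 0.454 under 100 bases, 1.46 from 300 to under 400 bases, 1.77 from 400 to under 600 bases and 0.718 at 2000 bases or more. The density of merged regions was thus highest in exons of 400 to under 600 bases. A merged region counts once however wide it is. The part of merging in the lower density of the longest exons was not tested.

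**Figure D1:**
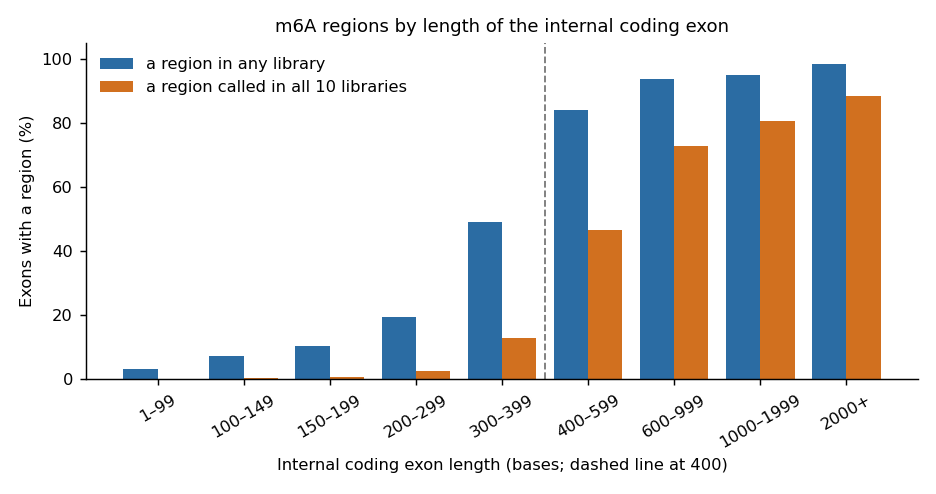
Share of internal coding exons (y axis, percent) with a region in any library (blue bars) and with a region called in all 10 libraries (orange bars) by exon length in bases (x axis), in 3019 genes. The first share climbed from 3.35% to 98.4%, and 84.1% of exons of 400 to under 600 bases held a region.

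Long internal exon regions were often called in every library. A total of 1761 (52.6%) were called in all 10 libraries, against 21.9% of all regions, 9.35% of the 5123 regions in shorter internal exons and 42.6% of the 4693 regions within 200 bases of a stop codon. At the other end, 330 (9.86%) were called in 1 library only, compared with 35.5% in shorter exons and 13.5% around stop codons. The remaining 1256 were called in 2 to 9 libraries, and 2603 had a call in both lines. Merged regions of this class were also wider, with a median of 528 bases against 174 in shorter exons and 426 around stop codons. The part of width in the shares called was not tested.

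In each library the share of all long internal exon regions that was called was set against the same share in the other classes. The mean was 74.3% ± 7.10 (SD, n = 10 libraries) for long exons, 37.9% ± 14.98 for shorter exons and 67.4% ± 9.23 around stop codons. Long exceeded short in 10 of 10 libraries, by a mean of 36.4 points (lowest 11.3, highest 48.8), and exceeded stop codon regions in 10 of 10, by 6.89 points (lowest 1.04, highest 9.49). Both differences had p = 0.00195 by a two-sided exact sign-flip test, the smallest that 10 libraries allow, and 0.00234 after adjustment over 6 class comparisons. The lowest values, 11.3 and 1.04 points, both came from T24R2 replicate 5, the library with the most peaks. Without it the means were 39.2 and 7.54 points.

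Enrichment was compared by rank, since fold values of separate lists need not share a scale. The fold enrichment of a peak was given as its percentile among all peaks of its own library. The median percentile of long internal exon regions was 54.6 ± 3.64 (SD, n = 10), that of shorter exons 28.9 ± 2.88 and that of stop codon regions 52.1 ± 2.45. Long exceeded short in every library, by a mean of 25.7 percentile points (lowest 16.2, highest 33.6, exact sign-flip p = 0.00195, adjusted 0.00234). Over the alternatives run, this mean went from 11.5 points (−log10 q of at least 10) to 26.8 points (ranks by q-value). Peaks in long exons were also wider, with a median width of 386 bases ± 69.6 against 147 ± 36.2 in shorter exons, and the part of width in the rank was not tested.

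Against stop codon regions the difference was 2.51 points (lowest 0.109, highest 5.36), positive in 10 of 10 libraries (exact sign-flip p = 0.00195, adjusted 0.00234). This small difference did not hold under other processing. It was 0.0609 points when every list was reduced to the same number of peaks and -2.15 points with a −log10 q of at least 10. With exons of 300 bases or more it was -0.0366 points.

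Among the members, rank depended on exon length without a steady trend. The median percentile, averaged over libraries, was 47.9 ± 3.77 (SD, n = 10) for exons under 600 bases, 60.3 ± 4.16 from 600 to under 1000 bases, 59.7 ± 4.48 from 1000 to under 2000 bases and 46.3 ± 3.91 for 2000 bases or more. The share called in all 10 libraries followed the same order, at 46.0%, 59.5%, 58.1% and 44.9%. Regions in exons of 600 to under 2000 bases thus had the highest medians. In the 50 bases above the length threshold, calls in all 10 libraries were made for 87 of 246 regions (35.4%), while 76 of 272 (27.9%) had them in the 50 bases below it. The corresponding counts were 10 of 20 members in the 50 bases beyond the stop codon limit and 8 of 16 regions of long internal exons in the 50 bases inside it.

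Positions lay away from exon ends. Over the 3305 members in exons of 1 gene, the median distance to the nearest end was 232 bases (quartiles 153 and 392). In shorter exons it was 43 bases, but exon length limits this distance, so these values do not compare placement. Only 10.3% of positions fell within 100 bases of an end, against 24.2% for an even spread of each position over its own exon. Within 50 bases the shares were 2.84% and 12.1%. Both ends were depleted, with 5.20% of positions within 100 bases of the upstream end and 5.14% within 100 bases of the downstream end. In 46.0% of members the region itself reached past an exon end, and the part of peak width in the placing of summits was not tested.

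In the shorter of the long exons, positions leaned towards the 3′ side. In exons under 600 bases, 18.3% of positions lay in the seventh of 10 equal segments and 5.25% in the second, and 58.4% lay downstream of the midpoint. The share downstream of the midpoint was 58.2% from 600 to under 1000 bases, 54.5% from 1000 to under 2000 bases and 52.6% at 2000 bases or more. Taken library by library, the share of called members with the summit downstream of the midpoint was 57.5% ± 2.35 (SD, n = 5) in T24 and 57.0% ± 3.29 (n = 5) in T24R2, with a range over all libraries from 52.4% to 60.3%. Each library thus had more summits downstream than upstream, and the difference between the lines was smaller than either spread.

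**Figure D2:**
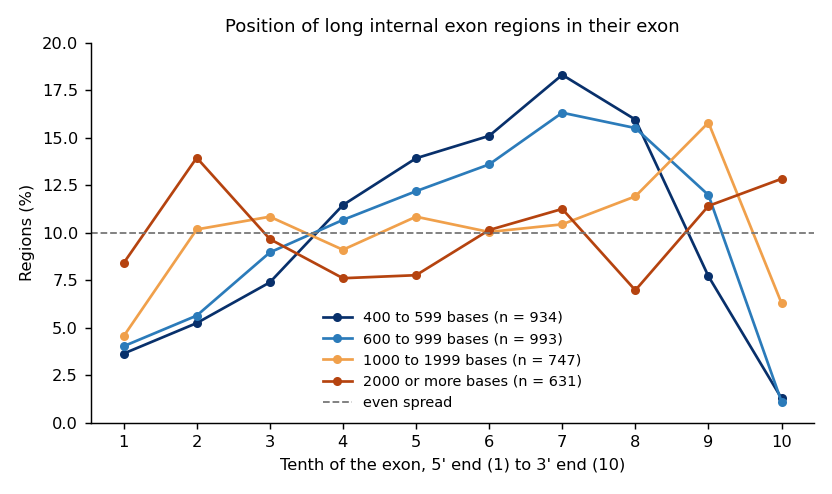
Share of long internal exon regions (y axis, percent) by which of 10 equal segments of the exon holds their position (x axis, 5′ to 3′), in 4 classes of exon length, with the even spread as a dashed line. In exons under 600 bases the share peaked at 18.3% in the seventh segment and was 1.28% in the last.

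Summits were found at nearly the same place in both lines. In the 1761 members called in all 10 libraries, the median summits of the lines differed by 13.0 bases at the median, against a median SD of 53.4 bases between libraries of 1 line. The difference was at most 50 bases in 79.5% of them. Where every list had exactly 1 peak in the region (1136 members), the corresponding values were 11.5 and 40.5 bases.

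DRACH matches were concentrated at the positions and on the transcript strand. Within 50 bases on each side, 91.1% of members held a DRACH match on the transcript strand and 70.4% on the opposite strand, which has the same length and base pairs. The shares were 87.1% and 69.0% in shorter exons and 88.7% and 69.9% over all exonic regions of 1 gene. For GGAC, the core of the favoured motif, the member shares were 47.4% and 24.5%, and over all exonic regions of 1 gene 48.4% and 25.8%. The most frequent DRACH sequence at members was GGACA, in 19.8% of windows against 8.90% on the opposite strand, followed by AGACA (17.7% against 6.48%). TAACT, at 4.54% against 4.96%, showed no surplus.

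Along the transcript the density of DRACH rose from 1.98 matches per 100 bases at more than 200 bases from the position to 2.53 in the central 100 bases, a ratio of 1.28. On the opposite strand it fell from 1.55 to 1.28. In shorter exons the ratio was 1.09, from 1.97 to 2.14. The GGAC density rose 1.54-fold at members, from 0.432 to 0.664, and 1.06-fold in shorter exons, from 0.627 to 0.665. Its central densities were thus alike in the classes, and the flanks differed.

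**Figure D3:**
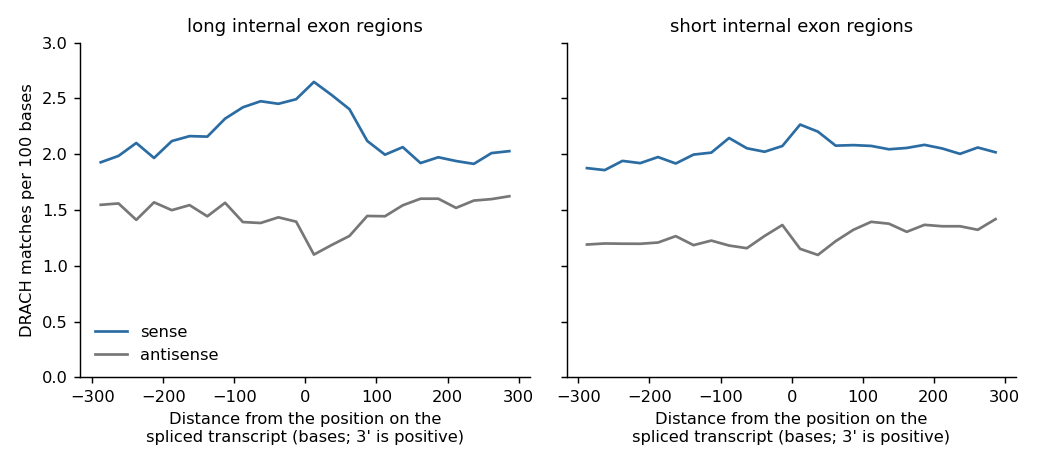
DRACH matches per 100 bases (y axis) by distance from the region's position along the spliced transcript (x axis, bases) for long (left) and shorter (right) internal exon regions, on the transcript strand (blue) and the opposite strand (grey). The long exon curve rose from 1.98 in the flanks to 2.53 in the central 100 bases, and the short exon curve from 1.97 to 2.14.

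The motif surplus was also computed in each library at the summits of that library's own peaks. Regions in exons of more than 1 gene and summits outside the exons of the transcript were left out. In T24R2 replicate 2 this kept 1077 of 1620 shorter exon regions and 2590 of 2643 long ones. In T24R2 replicate 5 it kept 3733 of 3895 and 2873 of 2924. The part of this loss in the class differences was not tested. The transcript strand share exceeded the opposite strand share by 21.9 points ± 1.33 (SD, n = 10) in long exons, 19.5 ± 2.27 in shorter exons and 23.1 ± 1.098 at stop codon regions. Long minus short was 2.46 points and above 0 in 10 of 10 libraries (exact sign-flip p = 0.00195, adjusted 0.00234). Long minus stop codon was -1.20 points, above 0 in 1 of 10 (exact p = 0.0117, adjusted 0.0117). Long internal exon regions thus ranked between the other classes in motif surplus.

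The lines were then compared by the number, share and rank of these regions in each library. T24 libraries called 2366, 2088, 2360, 2433 and 2286 of them, and T24R2 libraries 2578, 2643, 2484, 2715 and 2924. The groups did not overlap, and T24R2 exceeded T24 by 362 regions (2307 ± 133 against 2669 ± 166, SD, n = 5 each). The two-sided exact permutation test gave p = 0.00794, the smallest that 5 against 5 libraries allow, and an adjusted p of 0.0119 over 3 comparisons.

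As a share of all peaks, these regions moved the other way. They held 12.7%, 14.3%, 13.3%, 12.2% and 13.5% of the peaks in T24 and 11.98%, 12.05%, 12.1%, 11.2% and 9.81% in T24R2. Every T24R2 value lay below every T24 value, and the means were 13.2% ± 0.812 and 11.4% ± 0.973 (difference -1.76 points, exact permutation p = 0.00794, adjusted 0.0119). The T24R2 lists were longer, however, and when each list was reduced to its 17203 peaks of highest −log10 q the differences were 115 regions (exact permutation p = 0.103, adjusted 0.310) and -0.193 points (p = 0.341, adjusted 0.341). Neither difference in number nor in share held at equal list length. With a −log10 q of at least 10 both kept the call, at 506 regions and -0.931 points (exact permutation adjusted p = 0.0357 for each). Without T24R2 replicate 5 the full lists gave 298 regions and -1.36 points.

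The median percentile was 48.5, 50.7, 54.2, 57.1 and 53.6 in T24 and 55.1, 56.6, 52.3, 56.2 and 61.6 in T24R2. The groups overlapped, and the difference of 3.52 points did not pass the test (52.8 ± 3.28 against 56.3 ± 3.35, SD, n = 5 each, exact permutation p = 0.143, adjusted 0.143). With equal list lengths it was -2.19 points (adjusted p = 0.310, exact permutation).

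**Figure D4:**
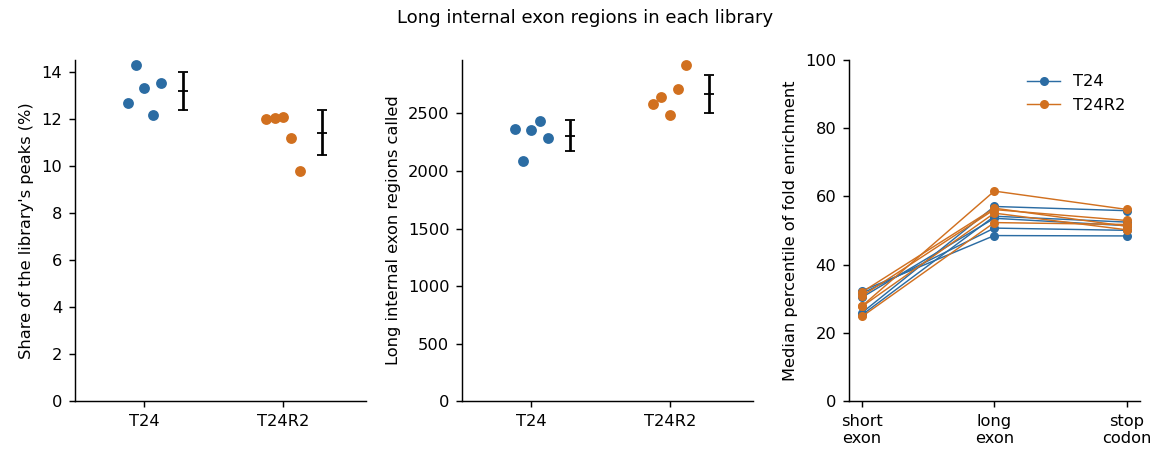
Values of each library: share of peaks in long internal exon regions (left, percent), number of these regions called (middle) and median percentile of fold enrichment in short exon, long exon and stop codon regions (right, lines join values of 1 library). T24 is blue and T24R2 orange, and black bars show mean ± SD (n = 5): 13.2% and 11.4% on the left, 2307 and 2669 in the middle.

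The shared members with the highest ranks came from genes of varied roles. BCL2, the founding inhibitor of mitochondrial apoptosis, led with a region of 2163 bases at chr18:63317538-63319700. This region was wider than the exon that holds its position, exon 2 of 3 (871 bases). Its fold enrichment was 42.1, 21.0, 19.8, 28.9 and 19.4 in T24 and 17.3, 37.0, 28.3, 20.5 and 32.7 in T24R2, and its percentile was never below 97.2. The values of the lines overlapped throughout (26.3 ± 9.68 against 27.1 ± 8.24, SD, n = 5 each). Its limma difference was -0.75 percentile points ± 5.92 (SE), with an adjusted p of 0.978.

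AHDC1, which encodes an AT-hook DNA-binding protein, had a region of 5080 bases at chr1:27547138-27552217 in an exon of 4929 bases. Fold enrichment was 25.4, 15.2, 24.4, 18.6 and 18.0 in T24 and 21.8, 19.1, 21.2, 27.6 and 26.7 in T24R2. In ZNRF3, a membrane ubiquitin ligase that removes Wnt receptors from the surface, the region at chr22:29049119-29050949 had values of 22.1, 18.4, 16.4, 19.5 and 13.7 in T24 and 25.7, 27.6, 17.2, 15.7 and 19.4 in T24R2. Both regions overlapped between lines. The other five of this group were in TRIM45 (a RING-type ubiquitin ligase), LRRC8B (a subunit of volume-regulated anion channels), RARA (retinoic acid receptor alpha), FAT4 (an atypical cadherin) and HOXD3 (a homeobox factor), with lowest percentiles from 90.8 to 93.1. Fold enrichment of the FAT4 region ranged from 14.2 to 19.2 in T24 and from 14.7 to 18.7 in T24R2.

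Calls in 1 line alone were taken as 5 of 5 libraries against 0 of 5. In T24R2 alone 88 members (2.63%) were called, against 3.02% of all regions, and in T24 alone 30 (0.896%), against 1.05% of all regions. Both shares lay near those of all regions. The exact Fisher test of calls per region had a smallest p of 0.00794, or 0.195 after adjustment over 43676 regions, so 0 members passed. At an unadjusted Fisher p under 0.05 there were 250 of the 3347 members, 198 called more often in T24R2 and 52 in T24. Over all 43676 regions there were 4021, of which 3106 were called more often in T24R2 and 915 in T24. With equal list lengths the counts were 32 in T24R2 alone, against 1.27% of all regions, and 33 in T24 alone, against 1.14% of all regions. Of the original sets, 24 and 21 members were still called in 1 line alone at equal length. The excess of T24R2 was thus absent at equal list length. It remained at a −log10 q of at least 10 (48 against 13, beside 1.47% and 0.392% of all regions). With peaks covering 50% of the region it also remained (75 against 14, beside 2.25% and 0.465% of all regions). The part of list length in the excess was not tested.

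Calls in the rest of the gene were counted for each set, without a test between the sets, which came from lists of unequal length. Of the 30 members called in T24 alone, 24, in 21 genes, had no exonic region of the gene called in any T24R2 library, and 1, in PSD4, was in a gene with another region called in all 10 libraries. Of the 88 called in T24R2 alone, 38, in 30 genes, had no exonic call in any T24 library, and 20 were in genes with another region called in all 10. In these bulk samples a transcript that is absent or scarce and a transcript without the mark cannot be told apart by a missing call, and expression from the inputs was not analysed here. No gene had members of both sets.

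By lowest percentile, the first of the members called in T24R2 alone was in exon 10 of ARHGAP25, at chr2:68822359-68822998. Fold enrichment was 20.6, 29.8, 19.97, 26.5 and 22.5, with a lowest percentile of 98.9. HECW1, a HECT-type ubiquitin ligase, followed at chr7:43444382-43445664 with 18.8, 36.2, 10.7, 27.3 and 22.9. Neither had a row in any T24 library. A region in the calcium channel gene CACNA1A had values of 16.8, 12.6, 12.9, 21.1 and 12.3, and one in the JNK scaffold gene MAPK8IP2 had 10.9, 13.3, 9.98, 19.1 and 21.2. All 4 were also called in T24R2 alone at equal list length.

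BSN, which encodes the presynaptic scaffold protein bassoon, had 11 members in 6 exons, of which 7 were called in all T24R2 libraries and none in any T24 library. The one with the highest lowest percentile, at chr3:49651724-49652794 in the exon of 6654 bases, had values of 14.0, 12.6, 12.5, 14.4 and 12.9. Another in the same exon, at chr3:49656508-49657681, had 19.5, 17.0, 9.98, 10.4 and 15.8. The region in exon 3, at chr3:49642261-49643132, had 10.0, 10.6, 10.1, 12.8 and 9.64. No exonic region of BSN was called in any T24 library. TENM2, a teneurin adhesion receptor of neurons, had 3 members, all called in T24R2 alone, and the one at chr5:168247962-168248364 had values of 10.6, 11.9, 11.2, 27.1 and 10.6. Here T24R2 replicate 4 stood above the other 4 libraries. The TENM2 members at chr5:168218282-168218975 and chr5:168247228-168247792 were not called in T24R2 alone at equal list length. Unlike BSN, TENM2 had 1 other exonic region with a call in T24.

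By the same measure, the T24 set was led by THEMIS2, a signalling adaptor of immune cells, with a region at chr1:27882256-27883022 in exon 4 of 6. Fold enrichment was 24.6, 24.95, 19.9, 17.8 and 17.6, with a lowest percentile of 95.8. IGSF10, a secreted immunoglobulin superfamily protein, had 5 members, none with a call in T24R2. The first by lowest percentile, at chr3:151442991-151443676, had 21.3, 16.1, 12.6, 19.3 and 18.0, and 3 of the 5 were called in every T24 library. Of these 3, the one at chr3:151445662-151446178 was not called in T24 alone at equal list length. FAT3, an atypical cadherin related to FAT4, had 7 members without any T24R2 call, 4 of them in all T24 libraries, and the first by lowest percentile, at chr11:92801241-92801890, had 14.3, 12.04, 11.5, 11.2 and 14.3. Those at chr11:92798516-92799079 and chr11:92800498-92800886 were not called in T24 alone at equal list length. In FAT3, 1 other exonic region had a call in T24R2.

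LMTK3, a membrane kinase, had 31.8, 20.2, 11.3, 11.02 and 29.2 at chr19:48497401-48498555, the widest spread of the named T24 regions. LMOD1 (leiomodin, an actin nucleator of smooth muscle) had 17.7, 11.4, 13.1, 10.5 and 13.9. The region in FAM83B ranged from 9.21 to 17.2, that in PLEKHA7, an adherens junction protein, from 8.61 to 19.9, and that in FCGBP, a mucus protein, from 6.93 to 12.8. These 8 regions were also called in T24 alone at equal list length.

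Quantitative differences were tested in the 9577 regions called in all 10 libraries, 1761 of them members, by limma on percentiles among these shared regions. At an adjusted p under 0.05, 10 members ranked higher in T24R2 (0.568%, against 0.689% of all shared regions) and 2 in T24 (0.114%, against 0.501%). An unadjusted limma p under 0.05 was found for 217 of the 1761 members and for 1317 of the 9577 shared regions. The median difference over members was -0.16 percentile points and over all shared regions 0.07. The groups of percentiles did not overlap in any of the 12. These were picked by the test on the same percentiles, so the lack of overlap is a description and adds no support.

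ALPK3, an alpha-kinase known from cardiac muscle, differed most. At chr15:84856408-84856847 in exon 6, its fold enrichment was 4.71, 6.93, 6.90, 5.02 and 5.81 in T24 and 23.7, 23.7, 11.8, 25.3 and 20.8 in T24R2. All T24R2 values lay above all T24 values. The percentile rose by 68.6 points ± 7.86 (SE, adjusted p = 0.00195, limma), and the adjusted p stayed at or under 0.00919 when any library was left out. A second member of the gene, in exon 5, was called in 2 of 5 T24 libraries, at 5.25 and 6.56, and in all T24R2 libraries, at 13.6, 21.7, 11.6, 18.8 and 16.9.

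TMCO3, a membrane protein of the cation antiporter family, had 4.79, 8.33, 5.18, 6.45 and 4.37 in T24 and 13.8, 19.6, 14.96, 12.1 and 22.3 in T24R2 at chr13:113495438-113496027. The groups did not overlap (61.6 points ± 9.58 SE, limma adjusted p = 0.0119), and the highest adjusted p with a library left out was 0.0390, without T24R2 replicate 5. The other 8 members higher in T24R2 lost the call when 1 library was left out. For BAHCC1, a nuclear protein with a BAH domain, fold enrichment was 9.07, 7.71, 8.14, 5.92 and 10.1 in T24 and 19.9, 42.0, 15.9, 37.0 and 24.1 in T24R2. The difference was 52.0 points ± 8.67 (SE, limma adjusted p = 0.0196), with an adjusted p of 0.0568 without T24R2 replicate 4.

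CCDC102A, a coiled-coil protein, had 7.83, 6.22, 3.49, 8.92 and 3.27 in T24 and 11.6, 18.5, 9.62, 21.9 and 17.5 in T24R2 (56.7 points ± 10.4 SE, limma adjusted p = 0.0285, and 0.0700 without T24R2 replicate 2). SMOX, spermine oxidase of polyamine breakdown, had 3.37, 3.69, 3.39, 5.24 and 3.06 in T24 and 10.7, 12.8, 5.12, 11.3 and 9.29 in T24R2. Its fold values touched, at 5.24 and 5.12, while its percentiles did not overlap (45.2 points ± 9.70 SE, limma adjusted p = 0.0462, and 0.112 without T24R2 replicate 4). MAP1S, a microtubule-associated protein, had 5.26, 5.94, 7.98, 5.57 and 5.39 against 9.80, 17.4, 9.65, 10.9 and 12.4 (42.6 points ± 7.78 SE, limma adjusted p = 0.0285, and 0.0647 without T24 replicate 4). The other four were in FUT11, CAMSAP3, HYAL2 and PCLO, with differences from 35.7 to 42.1 points.

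In the opposite direction, TRAF3IP1, a component of the intraflagellar transport machinery of cilia, had 9.05, 8.63, 8.47, 9.95 and 11.7 in T24 and 3.97, 5.71, 4.53, 4.196 and 5.91 in T24R2. The percentile fell by 46.5 points ± 7.81 (SE, limma adjusted p = 0.0197, and 0.0578 without T24R2 replicate 4). KIAA1958 had 12.8, 11.7, 15.2, 13.9 and 12.5 in T24 and 7.70, 10.1, 8.55, 9.31 and 6.81 in T24R2, again without overlap (difference -36.7 points ± 7.36 SE, limma adjusted p = 0.0387, and 0.0798 without T24R2 replicate 1). On log2 fold enrichment centred on the median, 6 of the 12 members kept the call with the same sign. These were ALPK3, TMCO3, CCDC102A, BAHCC1, SMOX and TRAF3IP1.

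**Figure D5:**
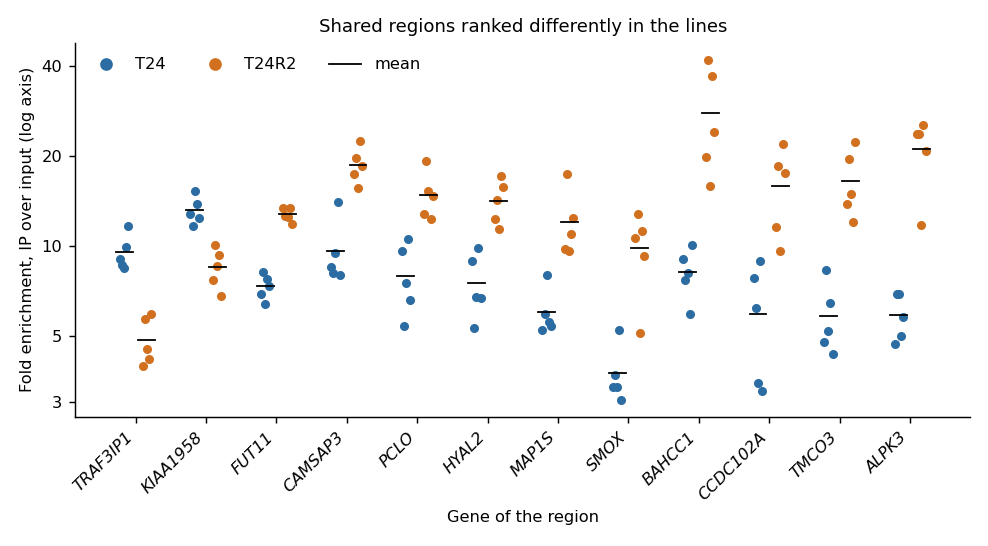
Fold enrichment of IP over input (y axis, log scale) in each library for the 12 shared long internal exon regions that differed in rank, by gene (x axis). Points are libraries (T24 blue, T24R2 orange, n = 5 each) and black lines are means, from 9.55 against 4.86 in TRAF3IP1 to 5.87 against 21.1 in ALPK3.

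Most genes had few such regions. A single member was found in 1515 genes, 2 in 383, 3 in 159 and 4 or more in 112. The genes with most were PCLO with 12, BSN and DST with 11 each, ZFHX3 with 10, and DNHD1, FAT1, MACF1 and SPEN with 9 each. They ranged from FAT1, with every member called in every library, to BSN, with no member called in T24. In FAT1, an atypical cadherin, all 9 members in 5 exons were called in all 10 libraries, and none passed the rank test. DST and MACF1, the spectraplakins that join microtubules to actin, had 4 of 11 and 5 of 9 called in all 10 libraries. SPEN, a transcriptional repressor that also acts in X inactivation, had 5 of 9, in 3 exons of which the longest had 8176 bases, and 1 was called in T24R2 alone.

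PCLO encodes piccolo, the presynaptic partner of bassoon. Of its 12 members 1 was called in all 10 libraries, and the mean number of libraries per member was 1.75 of 5 in T24 and 3.67 of 5 in T24R2. The shared one, at chr7:83154854-83156480, was among those ranked higher in T24R2 (9.63, 5.40, 7.50, 10.5 and 6.62 against 12.8, 19.3, 15.3, 12.3 and 14.7, 40.6 points ± 8.63 SE, limma adjusted p = 0.0438). The call was lost without T24R2 replicate 2, at an adjusted p of 0.104. In ZFHX3, a zinc finger homeobox factor, 3 of 10 members were called in all 10 libraries, and in the dynein-related gene DNHD1 1 of 9. A leaning to T24 was seen in ZNF608, where 8 members had a mean of 2.62 libraries in T24 and 0.75 in T24R2 and none was called in all 10.

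Genes of hand-chosen groups were then counted, beside 52.6% of all members called in all 10 libraries. Over all 19701 canonical transcripts, 11.01% had a member, and since the groups were chosen with earlier results of these data known, their shares of genes with a member are a description only. Of 72 chromatin regulators 59 had a member, and 101 of their 164 regions (61.6%) were called in all 10. The lysine methyltransferase KMT2D had 8 members, 6 of them in all 10 libraries, KMT2C had 5 of 6 and ASH1L 4 of 5. One region, in SETD1B, was called in T24R2 alone and 0 in T24 alone. None of the 101 tested regions passed the rank test. Their median difference was -6.54 percentile points, and the medians of the other 4 large groups, described next, were also negative, at -2.61 for repair, -0.70 for mitosis, -2.39 for cytoskeletal and matrix genes and -4.36 for zinc finger and homeodomain factors, against -0.16 over all shared members.

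Among 46 DNA repair and replication stress genes, 31 had a member, and 43 of 73 regions (58.9%) were called in all 10 libraries. BRCA1 had 1, in exon 10, with fold enrichment of 5.91, 3.41, 7.42, 3.82 and 6.37 in T24 and 3.66, 4.02, 4.10, 4.02 and 4.87 in T24R2. BRCA2 had 6, 4 of them in its exon of 4932 bases. The one in exon 10 of BRCA2 had 14.2, 10.1, 4.98, 17.3 and 11.6 in T24 and 17.4, 16.2, 15.7, 15.1 and 17.1 in T24R2. The lines overlapped in both, and the limma adjusted p was 0.456 for BRCA1 and 0.491 for this region of BRCA2. A region of UIMC1, a partner of the BRCA1 complex, was called in T24R2 alone. Of the 43 tested, 0 passed the rank test in either direction.

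Of 44 mitosis and centrosome genes 33 had a member, with 52 of 81 regions (64.2%) in all 10 libraries and none confined to 1 line by the rule above. MKI67, the proliferation marker Ki-67, had a region of 6756 bases that covered nearly all of an exon of 6845 bases. Its fold enrichment there was 3.03, 3.29, 3.63, 4.59 and 3.00 in T24 and 4.37, 5.08, 5.06, 4.04 and 6.56 in T24R2. The groups overlapped, with a limma adjusted p of 0.736. The region in exon 14 had 2.51, 1.98, 2.77, 2.86 and 2.46 in T24 and 3.94, 4.36, 3.13, 3.57 and 3.25 in T24R2, without overlap in fold, yet its rank did not pass the test (limma adjusted p = 0.919). PCNT had 4 of 4 members called in all 10 libraries and ALMS1 4 of 7.

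Of 55 cytoskeletal linker, matrix and giant cadherin genes 29 had a member, and 47 of 107 regions (43.9%) were called in all 10 libraries. Here 2 regions were called in T24R2 alone and 4 in T24 alone. The first were in the matrix proteins TNC and VCAN, the others all in FAT3. In TNC, the region in exon 2 had 3.12, 3.50, 4.27, 3.07 and 7.40 in T24R2, while that in exon 3 was called in all 10 libraries. VCAN had 8 members, with a mean of 1.88 of 5 libraries in T24 and 4.62 of 5 in T24R2. Of 55 zinc finger and homeodomain factors 32 had a member, 49 of 113 regions (43.4%) were called in all 10, and 1, in ZFHX2, was called in T24R2 alone. None of the 47 and 49 tested regions passed the rank test. The regions in TNC, VCAN, ZFHX2, SETD1B and UIMC1 were not called in T24R2 alone at equal list length.

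The study chose 15 transcripts on these samples, so their direction is not independent evidence. In 3 of them there was a long internal exon region. PML, the organiser of nuclear bodies, had 1 in exon 3, called in T24R2 alone at 4.01, 4.502, 2.86, 6.54 and 6.41. POLRMT, the mitochondrial RNA polymerase, had 2. The one in exon 10 was called in T24R2 alone at 6.71, 5.90, 4.11, 14.6 and 5.31, and the one in exon 3 was called in 4 T24 and 5 T24R2 libraries. FUT8, a fucosyltransferase, had 1 in all 10 libraries that did not pass the rank test. The PML region and the POLRMT region in exon 10 were not called in T24R2 alone when lists had equal length. Of the mesenchymal genes, SNAI2 had 1 member, called in all 10 libraries, ZEB1 had 2 and ZEB2 3, with 1 of each called in all 10. PPARG was the only urothelial marker with a member, which was called in 1 library of each line at most.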

How the data were processed

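MeRIP-seq peak lists of 5 T24 and 5 T24R2 m6A IP libraries were analysed, and sample titles gave the groups. Per the methods and the submitters' processing notes, the authors aligned reads to hg38 with GENCODE 39 and STAR (version 2.7.0), kept unique reads without duplicates with SAMtools (version 1.10) and called peaks of IP over input in each library with MACS2 (version 3.0.0a6). Start, end and summit of a peak form a row. It also gives a score derived from the q-value by the authors' caller, the fold enrichment (a ratio of IP over input) and, on the −log10 scale, the p-value and the q-value, as deposited by the authors, with a lowest −log10 q of 2.00. The lists hold no strand and no read counts, so depth is unknown and the study's count tests were not run. The deposited list of merged regions was identical to the merge of the 10 lists, of the 43676 regions 43259 lay on sequences of the hg38 reference used here and none ended past its sequence, the other 417 were not annotated and stayed in counts over all regions, and 0 columns of per-sample values were left unused.

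Region positions were placed on canonical protein-coding transcripts of GENCODE 44 (19701 transcripts), and distance to the stop codon was measured on the spliced transcript. A library had a region when it had a row in it, and its value was the row with the highest fold enrichment. Library values were compared between lines by exact permutation over all 252 assignments, and classes within libraries by exact sign flips over 1024 patterns. Fisher's exact test compared calls per region, and limma (version 3.58.1, R 4.3.3) compared percentiles of regions called in all 10 libraries. All p-values were adjusted by the Benjamini-Hochberg method. These steps were tested on simulated data. Python 3.11.15, SciPy 1.17.1 and pysam 0.24.0 were used.

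Named regions were the 8 shared ones with the highest lowest percentile, the 8 such ones of each set called in 1 line alone, up to 6 past the limma threshold in each direction, the 8 genes with most regions, and members of the gene lists. Members and lists were chosen with earlier results of these data known. Alternatives were an equal number of rows per list, a −log10 q of at least 10, other exon lengths, cover and call limits, other scales and fits, other motif windows, the replicate number as a block, and each library left out in turn.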

Additional observations from a re-analysis of the deposited data

Results flagged for a closer look

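Values per library were examined for 13 measures in each line, 26 groups in all, of which chance alone would mark about 1 in 20. A single value stood apart. The excess of DRACH surplus in long over shorter exon regions was 1.59 points in T24R2 replicate 5, the lowest of its line, the nearest other being 2.79.

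Differences between the lines were found in 2 class contrasts. The median percentile of long internal exon regions exceeded that of stop codon regions by 1.17 points ± 0.819 (SD, n = 5) in the T24 libraries and by 3.85 ± 2.04 (n = 5) in the T24R2 libraries, which differed by 2.68 points (exact permutation p = 0.0476). The share of regions called was higher in long exons than at stop codons by 8.37 points ± 1.25 in the T24 libraries and by 5.41 ± 2.68 in the T24R2 libraries, and T24R2 minus T24 was -2.96 points (exact permutation p = 0.0397). Neither passed adjustment over 6 contrasts, with an adjusted p of 0.143 for both. The cause was not tested.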

How the results depend on the processing

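The contrasts of long against shorter exons kept direction and call under every alternative run, but not size. The rank contrast of 25.7 points ran from 11.5 (−log10 q of at least 10) to 26.8 (ranks by q-value), with 20.5 at equal numbers of peaks per list. The motif contrast of 2.46 points ran from 0.923 (exons of 600 bases or more) to 7.09 (DRACH within 25 bases). The T24R2 minus T24 differences in share of peaks and in regions called lost the call at equal numbers of peaks per list (-0.193 points and 115 regions), where the median percentile turned to -2.19. In the replicate block the differences in share and in regions called were -1.76 points and 362 regions (p = 0.0625 by exact sign flips, the smallest that 5 pairs allow). At a −log10 q of at least 10 both kept the call, at -0.931 points and 506 regions. Long minus stop codon in median percentile was 0.0609 at equal numbers, -2.15 at a −log10 q of at least 10 and -0.0366 with exons of 300 bases or more. Members in T24R2 alone numbered 88, but 32 at equal numbers, 48 at a −log10 q of at least 10 and 227 with at least 4 of 5 against at most 1 of 5. Those in T24 alone numbered 30, and 33 at equal numbers. They were 13 at a −log10 q of at least 10, 14 with peaks covering 50% of the region and 60 with the looser rule. Members ranked higher in T24R2 were 10, but 3 at equal numbers, 3 at the q limit, 4 with a trended robust fit and 1 in the replicate block. Those higher in T24 were 2, but 0 at the q limit and in the block, 4 with exons of 300 bases, and 1 with exons of 600 bases, percentiles of the whole list, log2 values and the robust fit. The numbers did not pair the libraries: same-numbered deviations correlated at -0.0419 to 0.121.

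Leaving out 1 library gave 2 to 8 members ranked higher in T24R2 (2 without T24R2 replicate 4) and 0 to 5 higher in T24 (0 without T24R2 replicate 4, 5 without T24R2 replicate 3). The other results kept direction and side of the threshold in all of these. Peak lists hold no counts, so depth limits could not be given.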
